A study of Mus musculus with 5 samples.

Results

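The genes described here encode proteins that neutrophils store in their secondary (specific) and tertiary (gelatinase) granules: Ngp, Camp, Ltf, Lcn2, Cd177, Mmp8, Mmp9, Chil3, Fcnb and Olfm4. They were chosen by name with earlier results of these data known, so counts set beside all probe sets or genes only describe them. Every probe set that the array's annotation assigns to 1 of these symbols alone was used. All 10 genes were found, on 11 of the 45037 probe sets tested, with 2 probe sets for Mmp9 and 1 for each of the other 9. The RNA came from mouse KLS cells, sorted as c-Kit+ Lin- Sca-1+, a fraction in which stem cells of the blood and multipotent progenitors are enriched, and was hybridised to Affymetrix arrays. Of the arrays, 3 were titled Rb family deficient, with genotype Rb -/- p130 -/- p107-/-, and 2 were titled wild type, with genotype Rb +/+ p130 +/+ p107+/-, so the control group also lacked an allele of p107. In both groups recombination was activated in mice 6 weeks old with Mx1Cre, a recombinase under an interferon-responsive promoter that is not specific to stem cells, and cells were sorted 2 months later. The labels do not say whether the wild type mice carried floxed alleles or the Cre transgene, nor whether an array held 1 animal or a pool, so each p-value reflects the spread among these arrays alone, which may be partly technical. The authors hybridised 6 arrays and dropped 1 because of its background and its control probe sets.

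Neutrophil precursors make their granules in sequence. Primary granule genes such as Mpo and Elane are read at the promyelocyte stage, secondary granule genes such as Ltf and Camp at the myelocyte stage, and gelatinase granule genes such as Mmp9 later still. The transcription factor C/EBP epsilon is needed for secondary granule transcripts. The sort removes cells that carry mature lineage markers, and these transcripts are therefore known mainly from cells outside the KLS gate.

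Median intensities were 26.1 to 26.6 on the deficient arrays and 26.5 to 26.7 on the wild type arrays. RMA gives all arrays a common distribution, so near-equal medians do not show that the samples were alike. Rbl1, which encodes p107, averaged 4.71 ± 0.45 in deficient cells and 7.75 ± 0.83 in wild type cells on its brightest probe set (log2 RMA intensity, SD, n = 3 and 2; limma adjusted p = 0.0513), while Rb1 averaged 8.39 ± 0.58 against 8.74 ± 0.13 (difference -0.36, adjusted p = 0.732) and Rbl2, which encodes p130, 7.84 ± 0.27 against 8.31 ± 0.44 (difference -0.46, adjusted p = 0.473), each with overlapping groups. How the probes of these 3 targeted genes lie relative to the deleted sequence is not stated in the labels, so the array values do not check the Rb1 and Rbl2 genotypes. Of 8 KLS markers measured, 0 passed an adjusted p under 0.05 (limma), with 4 lower and 4 higher means in deficient cells. Over all genes 0.610% passed as lower and 0.225% as higher, so 0 of 8 does not show that these markers were unchanged. At an unadjusted p under 0.05 (limma), 1 was lower and 0 higher, against 9.86% and 8.76% of all genes. Mecom, a stem cell transcription factor gene, read 8.64, 8.68 and 9.14 on the deficient arrays, against 10.55 and 9.48 on the wild type arrays (difference -1.19, SE 0.33, adjusted p = 0.189, limma). Over the probe sets of Mecom the differences ran from -1.19 to 0.07. Slamf1 differed by -0.33 (up to 0.20 on another probe set), Flt3 by -0.32 and Meis1 by -0.16. Kit lay between 10.88 and 11.25 on the deficient arrays and between 10.83 and 11.08 on the wild type arrays, and Cd34 between 11.79 and 12.27 against 11.86 and 12.03. Ly6a, which encodes Sca-1, matched no probe set by symbol. As a sign of RNA quality, the 3′ minus 5′ difference of the beta-actin control probe sets was 3.40, 3.53 and 3.34 log2 units on the deficient arrays, against 3.16 and 3.12 on the wild type arrays (exact permutation test, two-sided, p = 0.1, the smallest that 3 against 2 arrays allow). That of Gapdh overlapped, at 4.67, 4.45 and 4.87 against 4.57 and 4.71 (exact permutation p = 0.9). The part of RNA quality in the members' difference was not tested. Xist read 12.42 on deficient 2 against 3.44 on deficient 1 and 3.73 on deficient 3, and 9.31 on wild type 2 against 3.58 on wild type 1. Eif2s3y, a Y-linked gene, read 3.50 on deficient 2 and between 9.81 and 10.37 on the other 4 arrays. Wild type 2 was thus high for both Xist and Eif2s3y, and deficient 2 for Xist alone. By these genes, sex was not the same across the arrays of either group.

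All 10 granule genes were lower in Rb family deficient KLS cells. On each of the 11 probe sets the 3 deficient arrays lay below both wild type arrays, which held for 15.2% of all probe sets. At an adjusted p under 0.05 (limma, two-sided, Benjamini-Hochberg over all 45037 probe sets), 9 of the 11 probe sets fell and 0 rose, where 0.326% of all probe sets fell and 0.164% rose. At an unadjusted p under 0.05, 11 were lower and 0 higher, against 6.82% and 7.28% of all probe sets. Mmp8 and Chil3 did not pass. The median difference over the 11 probe sets was -4.12 on the log2 scale (deficient minus wild type), and that over all probe sets was 0.00. A fall of at least 2 log2 units was seen on 10 of the 11, and on 0.335% of all probe sets. The count of 9 depended on single arrays: it was 2 without deficient 1, 3 without deficient 3 and 3 without wild type 2. Calls over all probe sets were fewer in these fits too, with 0.0466%, 0.06% and 0.153% lower, while the members' median difference stayed between -4.31 and -3.93 with any 1 array left out. In bulk RNA, fewer cells of a type and less RNA per cell cannot be told apart.

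**Figure D1:**
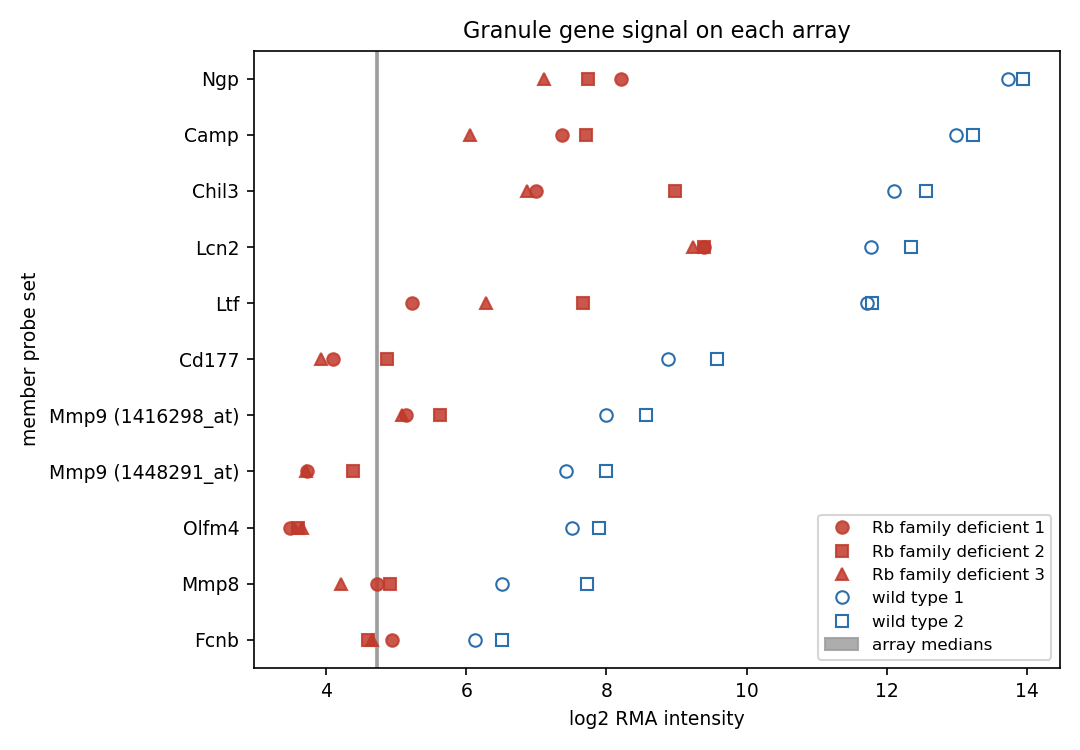
The log2 RMA intensity (horizontal axis) of each of the 11 granule probe sets (rows) is plotted for the 3 Rb family deficient arrays (filled) and the 2 wild type arrays (open), with the grey band marking the 5 array medians. Every filled symbol lies left of both open symbols in its row, and the smallest gap between the groups is 1.18 for Fcnb.

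The secondary granule genes with the strongest signal were considered first. Ngp encodes neutrophilic granule protein, a secreted relative of the cathelicidins. It read 8.21, 7.73 and 7.11 on the deficient arrays, against 13.73 and 13.95 on the wild type arrays. The difference was -6.16 (SE 0.31, adjusted p = 0.00462, limma), a 71.3-fold lower signal (95% interval 42.0 to 121). The gap between the nearest arrays of the groups, 5.52, was more than the range within either group. Camp encodes the cathelicidin antimicrobial peptide. Its values were 7.36, 7.71 and 6.05 in deficient cells, against 12.99 and 13.23 in wild type cells. The fall of 67.4-fold (difference -6.07, SE 0.48, adjusted p = 0.0170, limma) was close in size to that of Ngp.

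Ltf encodes lactoferrin, an iron-binding protein of specific granules. It read 5.23, 7.66 and 6.28 on the deficient arrays, against 11.72 and 11.79 on the wild type arrays. The deficient arrays were spread over 2.43 log2 units, with deficient 2 highest, whereas the wild type arrays lay 0.07 apart. The difference was -5.36 (SE 0.65, adjusted p = 0.0456, limma), and it passed the threshold in only 1 of the 5 fits with an array left out, that without deficient 2. Lcn2 encodes a lipocalin that withholds iron from bacteria by binding their siderophores, and it forms a complex with the MMP9 protein. Its values were 9.39, 9.39 and 9.24 in deficient cells, against 11.78 and 12.35 in wild type cells. The difference of -2.73 (SE 0.19, adjusted p = 0.0120, limma), or 6.62-fold (95% interval 4.83 to 9.07), was the third smallest of the 10 genes, and the deficient arrays agreed to within 0.16. Lcn2 was also the brightest member probe set on the deficient arrays, though not the gene with the smallest fall. It stood at percentile 87.6 to 88.6 among all probe sets of the deficient arrays, against 98.0 and 98.7 on the wild type arrays.

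Olfm4 encodes olfactomedin 4, a specific granule glycoprotein made by a subset of neutrophils. It read 3.49, 3.59 and 3.65 on the deficient arrays, against 7.51 and 7.89 on the wild type arrays. These deficient values lay below the array medians of 4.71 to 4.73, at percentile 9.58 to 16.2. Its difference of -4.12 (SE 0.15, adjusted p = 0.00154, limma) had the smallest adjusted p of the 10 genes. RMA compresses differences among dim probe sets, so no fold is given for a gene whose deficient values lie near or below the array median, and its log2 difference may be understated. Cd177 encodes a neutrophil surface glycoprotein also held in specific granules. It read 4.10, 4.87 and 3.92 in deficient cells, against 8.88 and 9.57 in wild type cells (difference -4.93, SE 0.34, adjusted p = 0.0120, limma). Its deficient arrays straddled the array medians, with deficient 2 the highest.

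The metalloproteinase genes were lower as well. Mmp9, which encodes gelatinase B, the enzyme that names the tertiary granule, was read by 2 probe sets. The brighter (1416298_at) gave 5.14, 5.63 and 5.08 on the deficient arrays, against 8.0 and 8.56 on the wild type arrays. The other (1448291_at) gave 3.73, 4.39 and 3.70, against 7.42 and 7.99. Both fell, by 3.00 (SE 0.24, adjusted p = 0.0170, limma) and by 3.77 (SE 0.27, adjusted p = 0.0133, limma) on the log2 scale. Mmp8, the neutrophil collagenase gene, read 4.73, 4.91 and 4.21 in deficient cells, against 6.51 and 7.72 in wild type cells. The 2 wild type arrays lay 1.21 apart, and the difference of -2.50 (95% interval -3.45 to -1.55) did not pass (adjusted p = 0.0665, limma).

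Chil3 and Fcnb encode lectin-like proteins. Chil3, the chitinase-like protein Ym1 of mouse neutrophils and macrophages, read 6.99, 8.98 and 6.87 on the deficient arrays, against 12.10 and 12.56 on the wild type arrays. Deficient 2 lay 1.99 above deficient 1, and the difference of -4.72 (95% interval -6.30 to -3.13) did not pass (adjusted p = 0.0557, limma). Without deficient 2 it passed, at -5.40 (adjusted p = 0.00661). Fcnb encodes ficolin B, a sugar-binding protein that in mouse is made by myeloid cells. It read 4.94, 4.59 and 4.65 in deficient cells, against 6.13 and 6.51 in wild type cells. This was the smallest difference of the 10, -1.59 (SE 0.17, adjusted p = 0.0355, limma), and it passed in 0 of the 5 fits with an array left out.

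The members did not lose signal to the same level. Against the array median, 3 of the 11 probe sets lay below it on deficient 1, 3 on deficient 2 and 5 on deficient 3, and 0 on either wild type array. The members' median percentile was 55.6, 60.7 and 54.9 on the deficient arrays, against 85.3 and 89.8 on the wild type arrays. Individual probe sets ranged from percentile 9.58 to 88.6 in deficient cells and from 64.5 to 99.7 in wild type cells. A percentile compares the brightness of probe sets and not the number of transcripts of different genes. Ranked among only the probe sets with 1 gene symbol, the median percentiles of the deficient arrays were 49.5, 54.7 and 48.7.

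**Figure D2:**
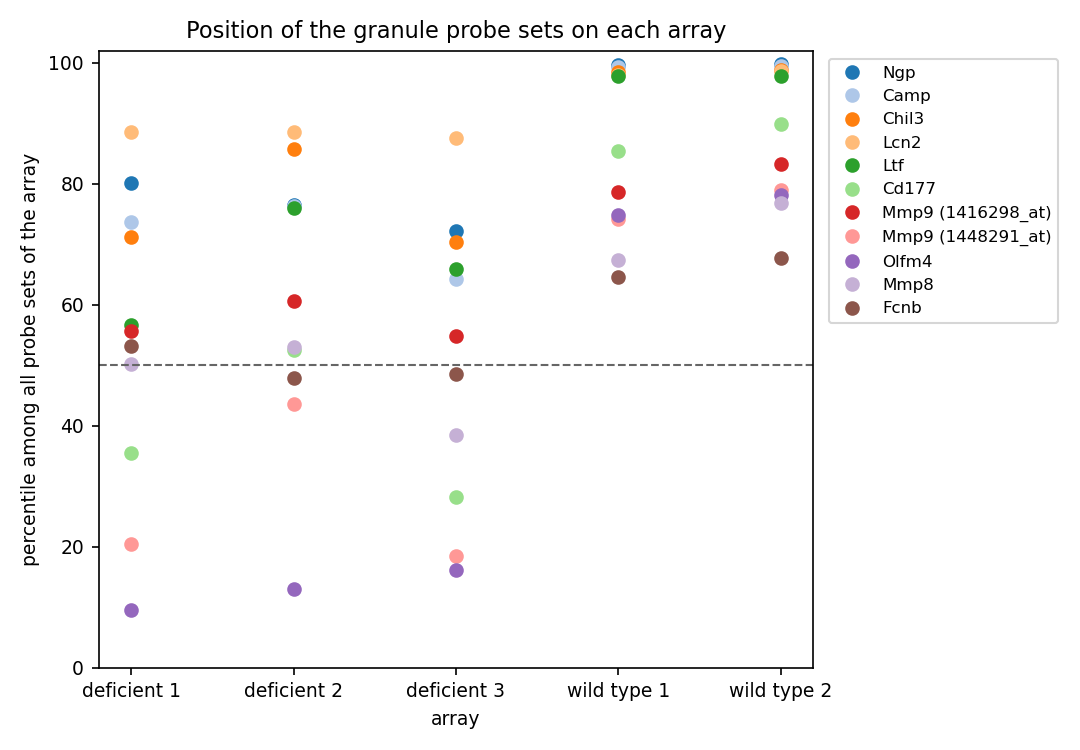
The percentile of each granule probe set among the 45037 probe sets of its array (vertical axis) is shown for the 3 deficient arrays and the 2 wild type arrays, with the array median dashed at 50. Lcn2 is the highest point on each deficient array and Olfm4 the lowest, and all wild type points lie above percentile 64.

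Within each group, most member probe sets ordered the arrays alike, though probe sets are not separate observations of an array. Deficient 2 was the highest deficient array for 8 of the 11 probe sets, where it was highest for 37.2% of all probe sets, and deficient 3 was the lowest for 8, against 30.5% of all. Wild type 2 lay above wild type 1 on all 11, where it did so on 51.7% of all probe sets. Deficient 2 and wild type 2 are also the arrays with high Xist, given above, and the part of that difference in the members' levels was not tested. With both of these arrays left out, 4 of the 11 probe sets fell, against 0.0466% of all, and the members' median difference was -3.94, an alternative chosen after seeing the data.

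**Figure D3:**
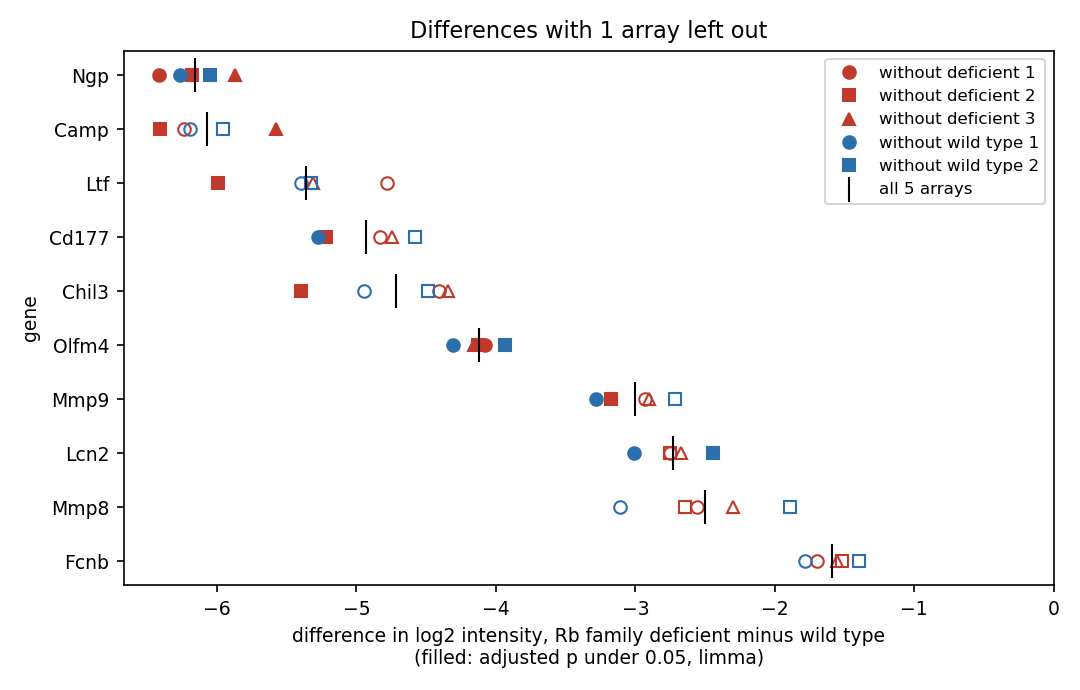
The difference in log2 intensity, Rb family deficient minus wild type (horizontal axis), is shown for each gene's brightest probe set with all 5 arrays (vertical tick) and with 1 array left out (symbols, filled where the adjusted p was under 0.05 in limma). All values are negative, from -6.42 for Ngp to -1.40 for Fcnb, and Ngp and Olfm4 passed in all 5 fits.

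Among genes, the members took high places in the order of falls. Ngp was the third largest of 18193 genes, Camp the fourth and Ltf the sixth, each on its brightest probe set, and 9 of the 10 members were among the 50 largest falls. Fcnb was in place 148. The 8 other genes whose centred log2 values over the 5 arrays lay nearest to the members' median profile (Euclidean distance, a description) were Wfdc21 (distance 0.17), Ifitm6 (0.44), Fpr2 (0.48), Lgals3 (0.55), Igk (0.70), Il7r (0.71), Blnk (0.94) and Chil1 (1.07). They include genes of neutrophils, such as the formyl peptide receptor Fpr2, and genes of lymphoid cells, such as the interleukin 7 receptor Il7r and the B cell adaptor Blnk.

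Camp, Ngp and Ltf lie on chromosome 9, in that order, with 8 protein-coding genes between Camp and Ngp and 20 between Ngp and Ltf in the RefSeq annotation of GRCm38.p6. Of the 28 genes between Camp and Ltf that are no members, 26 were measured, and 0 of them passed in either direction (limma; 2 lower and 4 higher at an unadjusted p under 0.05), where 0.610% of all genes fell and 0.225% rose. Their differences ran from -0.69 to 0.53, with a median of 0.04. The genes on either side of Ngp, Ptpn23 and Klhl18, differed by 0.35 (SE 0.13) and -0.14 (SE 0.15). Cdc25a, a cell cycle phosphatase gene next to Camp, differed by 0.31 (SE 0.16, adjusted p = 0.497, limma).

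**Figure D4:**
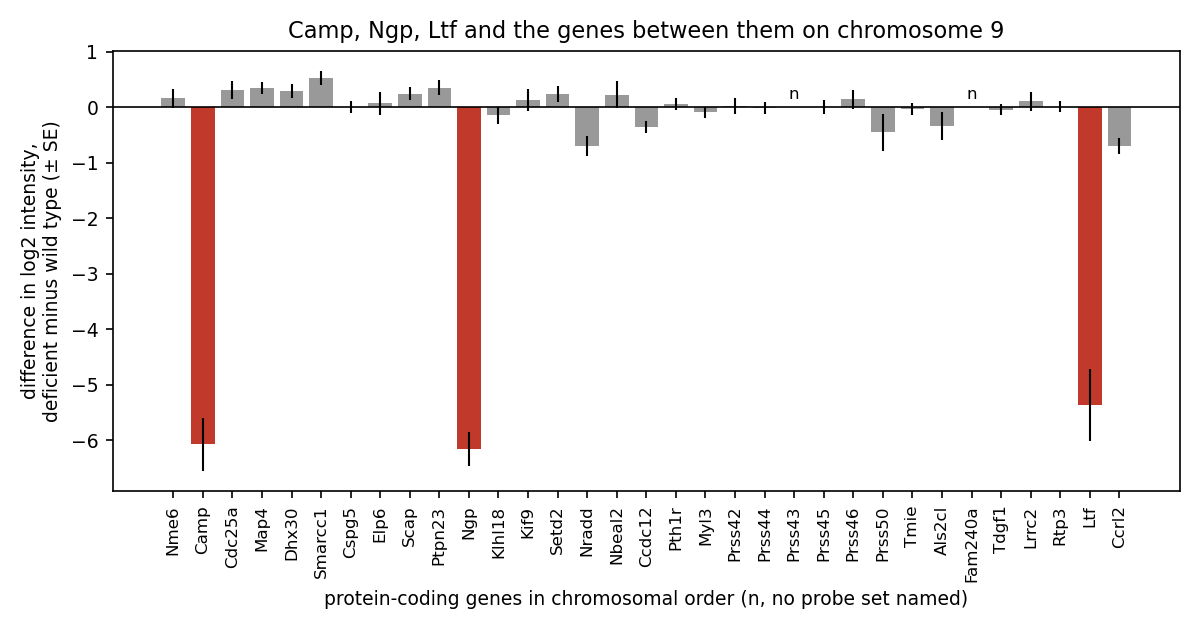
Bars give the difference in log2 intensity, Rb family deficient minus wild type (vertical axis, ± SE), of the protein-coding genes from Nme6 to Ccrl2 in chromosomal order, with granule genes in red and n marking genes with no named probe set. The bars of Camp, Ngp and Ltf reach -6.07, -6.16 and -5.36, and no gene between them goes below -0.69.

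The sequences upstream of these genes are shown because all 10 members were lower in deficient cells, with 8 past the test on their brightest probe set, and promoters of such genes are known to be read by C/EBP factors. A RefSeq promoter window was found for 9 of the 10 members, all but Mmp9, and the 250 bases before the annotated start were searched on both strands. The C/EBP core letters TTGCNNAA were present upstream of 5 of the 9 (Ngp, Ltf, Lcn2, Mmp8 and Fcnb), and in 9.56% of all 32851 windows of that length. Below, 4 windows are given 5′ to 3′ on the gene's strand, from RefSeq GRCm38.p6, with C/EBP core matches in capitals: Ngp (chr9:110419558-110419807, plus strand), Ltf (chr9:111019042-111019291, plus strand), Lcn2 (chr2:32387740-32387989, minus strand) and Camp (chr9:109849457-109849706, minus strand), the last as a strongly lowered gene without a match.
Ngp: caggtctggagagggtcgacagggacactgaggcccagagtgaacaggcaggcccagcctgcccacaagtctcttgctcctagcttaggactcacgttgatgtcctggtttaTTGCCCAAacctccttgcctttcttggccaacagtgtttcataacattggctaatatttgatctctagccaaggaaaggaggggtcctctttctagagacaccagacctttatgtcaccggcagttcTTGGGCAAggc
Ltf: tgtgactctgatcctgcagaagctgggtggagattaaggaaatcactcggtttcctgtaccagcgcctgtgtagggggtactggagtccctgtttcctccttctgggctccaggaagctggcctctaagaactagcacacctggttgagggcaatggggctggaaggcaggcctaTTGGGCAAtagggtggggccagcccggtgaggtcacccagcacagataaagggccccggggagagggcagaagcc
Lcn2: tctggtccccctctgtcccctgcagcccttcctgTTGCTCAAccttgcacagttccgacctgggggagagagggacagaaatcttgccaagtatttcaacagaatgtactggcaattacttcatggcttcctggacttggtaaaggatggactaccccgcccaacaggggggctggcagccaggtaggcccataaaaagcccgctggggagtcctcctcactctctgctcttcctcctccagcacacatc
Camp: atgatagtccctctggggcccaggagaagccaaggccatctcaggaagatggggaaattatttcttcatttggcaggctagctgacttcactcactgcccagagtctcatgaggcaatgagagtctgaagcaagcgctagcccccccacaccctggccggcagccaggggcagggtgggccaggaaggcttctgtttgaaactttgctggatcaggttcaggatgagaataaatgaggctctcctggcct

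In Ngp the matches began 138 and 11 bases before the start, in Ltf 75 bases and in Lcn2 216 bases before it. In all, 7 motifs were searched. A looser C/EBP form, TTNNGNAA, overlaps the core and was present in 8 of the 9 windows and in 36.8% of all. The ETS factor forms GAGGAAG and AGGAAGT, which overlap each other, were present in 3 and 4 of the 9, and in 10.6% and 7.69% of all. The letters TTTNNCGC, which cover common E2F sites, were present in 0 of the 9 and in 4.28% of all, TTTGAA, the core of the cell cycle homology region, in 2 and in 16%, and TATAAA in 1 and in 12.4%. A match is a run of letters and not a shown binding site, and its absence says only that these letters are not in the window.

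Primary granule genes, which are made at an earlier stage, were not lower as a list. Of the 7 measured, 0 passed in either direction (limma; 0 lower and 5 higher at an unadjusted p under 0.05, against 9.86% and 8.76% of all genes), 6 had higher means in deficient cells, and in 5 the 3 deficient arrays lay above both wild type arrays, which held for 16.5% of all genes. Their median difference was 0.46, against -4.42 for the members and -0.01 for all genes, each on the brightest probe set. The 7 include Ctsc (-0.26), Igfbp4 (0.08) and Nkg7 (0.63). The differences of Ctsc ran from -0.26 to 0.53 over its probe sets, so its direction depended on the probe set. Nkg7 is among those 5 and is also listed with the T and NK cell markers below, so these counts do not cover primary granule genes alone. Mpo, the myeloperoxidase gene, read 14.38, 14.40 and 14.36 on the deficient arrays, against 13.93 and 14.05 on the wild type arrays (difference 0.39, 95% interval 0.14 to 0.64, adjusted p = 0.173, limma). Elane, the neutrophil elastase gene, differed by 0.81 (95% interval 0.20 to 1.43, adjusted p = 0.226), Prtn3, the proteinase 3 gene, by 0.46 (0.08 to 0.84, adjusted p = 0.260) and Ctsg, the cathepsin G gene, by 0.81 (0.51 to 1.12, adjusted p = 0.0657).

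Other genes of specific and gelatinase granules mostly had lower means, with few past the test. Of 19 measured, 17 means were lower and 2 higher. At an unadjusted p under 0.05 (limma), 9 were lower and 0 higher, against 9.86% and 8.76% of all genes. Past the adjusted threshold, 4 fell, 0 rose and 15 did not pass, where 0.610% of all genes fell and 0.225% rose. The list's median difference was -0.49. The 4 were the lysozyme genes Lyz2 (-1.95, SE 0.13) and Lyz1 (-1.21, SE 0.10), Slc11a1, a metal transporter gene (-0.97, SE 0.11), and Cyba, a subunit gene of the phagocyte oxidase (-0.91, SE 0.10). The lysozyme genes are near-identical copies whose probe sets may share RNA, and another Lyz1 probe set differed by -0.30. Cybb, the catalytic oxidase subunit gene, differed by -2.54 without passing (adjusted p = 0.119, limma), and by as little as -0.25 on another probe set. Hp, the haptoglobin gene, had 11.35, 11.17 and 11.20 in deficient cells, against 10.64 and 11.59 in wild type cells (difference 0.13, 95% interval -0.54 to 0.80). Pglyrp1, which encodes a bacterial cell wall sensor, differed by -0.33 (95% interval -1.52 to 0.85), and the vitamin B12 carrier gene Tcn2 by -0.05 (-0.33 to 0.23).

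Genes of late neutrophils were lower in part. Of 15 measured, 12 had lower means and 3 higher. At an unadjusted p under 0.05 (limma), 9 were lower and 0 higher, against 9.86% and 8.76% of all genes. Past the adjusted threshold, 5 fell, 0 rose and 10 did not pass, where 0.610% of all genes fell and 0.225% rose. The list's median difference was -1.27. Those 5 were S100a9 (-5.81, SE 0.36) and S100a8 (-5.30, SE 0.43), whose products form calprotectin, Fpr2 (-4.09, SE 0.40), Wfdc21 (-3.89, SE 0.26) and Ifitm6 (-3.81, SE 0.23). The chemokine receptor gene Cxcr2 differed by 0.15 (95% interval -0.29 to 0.60), Csf3r, the receptor of the granulocyte growth factor G-CSF, by -0.24 (-0.55 to 0.07), and the lectin gene Clec4d by 0.00 (-0.30 to 0.30). Itgam, a defining surface gene of mature myeloid cells, lay between 3.59 and 3.80 on the deficient arrays and between 3.34 and 3.66 on the wild type arrays, below every array median. Mcemp1 differed by -2.19 without passing (adjusted p = 0.0719, limma). Ly6g, Retnlg and Fpr1 matched no probe set by symbol.

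**Figure D5:**
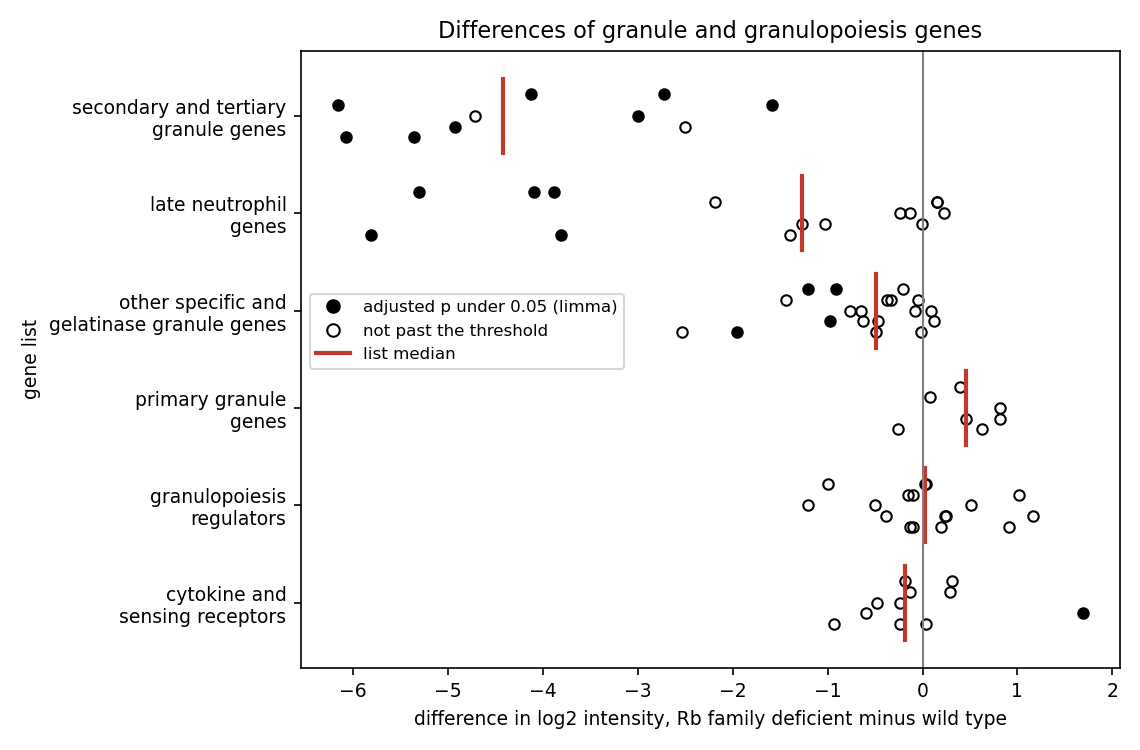
Each point is a gene's difference in log2 intensity, Rb family deficient minus wild type (horizontal axis), on its brightest probe set, by gene list (rows), filled where the adjusted p was under 0.05 in limma, with list medians in red. The granule members have a median of -4.42, the primary granule list 0.46 and the granulopoiesis regulators 0.03.

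The regulators of granule genes did not pass the test in either direction (0 of 17 measured, limma), and their median difference was 0.03. Over all genes, 0.610% fell and 0.225% rose, so a count of 0 in 17 does not set this list apart. At an unadjusted p under 0.05 (limma), 3 were lower and 4 higher, against 9.86% and 8.76% of all genes. Cebpe, which encodes C/EBP epsilon, matched no probe set by symbol. Cebpa, which starts the granulocyte program, read 8.52, 8.30 and 8.50 in deficient cells, against 7.0 and 7.57 in wild type cells (difference 1.16, 95% interval 0.69 to 1.63, adjusted p = 0.0743). Gfi1, a repressor needed for neutrophil formation, differed by 0.91 (95% interval 0.58 to 1.24, adjusted p = 0.0615), and Irf8, which favours monocytes over granulocytes, by -1.21 (-1.76 to -0.65, adjusted p = 0.0966). Ets1 differed by -1.0 (-1.45 to -0.55, adjusted p = 0.0940, limma), and its probe sets ran from -1.14 to -0.18. Spi1, which encodes the myeloid ETS factor, differed by -0.10 (-0.38 to 0.17), and Cebpd by -0.10 (-0.57 to 0.38). Among 11 receptors that can induce granule genes, 1 rose, Csf2rb, the shared subunit for GM-CSF and related cytokines (difference 1.69, SE 0.13, adjusted p = 0.0155, limma), and 10 did not pass. Of these 11, 2 were lower and 1 higher at an unadjusted p under 0.05 (limma). Csf2rb has a near-identical mouse copy whose RNA its probe sets may share.

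Binding partners and relatives of the members mostly did not pass. Of 19 partners, receptors and inhibitors, 1 fell, Fpr2, whose product is a receptor for the cathelicidin peptide. At an unadjusted p under 0.05 (limma), 6 of the 19 were lower and 0 higher, against 9.86% and 8.76% of all genes. Past the adjusted threshold, 0.610% of all genes fell and 0.225% rose. Reck, a membrane inhibitor of MMP9, differed by -1.36 (adjusted p = 0.101, limma). Timp3, an inhibitor of metalloproteinases, differed by -1.32 (adjusted p = 0.278) and the integrin gene Itgb2 by -0.67 (adjusted p = 0.0770). Over the probe sets of Timp3 the differences ran from -1.32 to -0.15. The Lcn2 receptor gene Slc22a17 differed by -0.23 (95% interval -0.83 to 0.37). Of 23 family relatives, 1 fell, the chitinase-like gene Chil1 (4.16, 4.10 and 4.80 in deficient cells, against 7.31 and 8.19 in wild type cells, adjusted p = 0.0266, limma). Of these 23, 3 were lower and 1 higher at an unadjusted p under 0.05 (limma). Mmp2 differed by -0.66 (adjusted p = 0.235, limma), Mmp14 by 0.84 (adjusted p = 0.260) and the ficolin A gene Fcna by -0.31 (adjusted p = 0.455). Over the probe sets of Mmp14 the differences ran from -0.08 to 0.84.

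Markers of other cell types were read beside the members, as sums of intensities over each list's brightest probe sets. Over all genes, 0.610% passed as lower and 0.225% as higher (limma), and 9.86% were lower and 8.76% higher at an unadjusted p under 0.05. Plasma cell markers had lower means in 7 of 8 genes, with 5 lower and 0 higher at an unadjusted p under 0.05. Of the 8, 2 passed, Igha (-7.88, SE 0.19) and Jchain (-7.48, SE 0.27). The list's sum was 3167 to 4262 on the deficient arrays and 15824 to 19044 on the wild type arrays. Most of the deficient sum was Xbp1, which read 11.97, 11.49 and 11.78 there and differed by -0.03. Igha read 5.26 to 5.79 and Jchain 3.56 to 4.29 on those arrays. B cell markers had lower means in 8 of 8 genes, with 5 lower and 0 higher at an unadjusted p under 0.05. Of these 8, 1 passed (Blnk), and the sums were 589 to 743 against 1611 to 1978. T and NK cell markers had lower means in 6 of 8 genes (3 lower and 1 higher at an unadjusted p under 0.05), and 1 passed (Klrd1, lower). Their sums were 3152 to 3798 against 1839 to 3080. The brightest gene there was Nkg7 (difference 0.63), also counted with the primary granule genes, so the sum does not follow most of the list. Monocyte, macrophage and dendritic cell markers passed in 0 of 12 (5 lower and 1 higher at an unadjusted p under 0.05), with sums of 2128 to 3311 against 2724 to 3702. The smallest p there was that of C1qa, a complement gene (difference -0.59, adjusted p = 0.147). Eosinophil, basophil and mast cell markers passed in 0 of 7 (2 lower and 4 higher), and their sums did not overlap, with 1977 to 4033 on the deficient arrays and 1020 to 1583 on the wild type arrays. Fcer1a, a subunit gene of the IgE receptor, differed by 2.24 (adjusted p = 0.187) and the basophil protease gene Mcpt8 by 1.35 (adjusted p = 0.162), whereas Prg2, the eosinophil major basic protein gene, differed by -1.91 (adjusted p = 0.0550). Erythroid markers passed in 0 of 8 (0 lower and 1 higher at an unadjusted p under 0.05), with sums of 2477 to 8489 against 4291 to 6131, and Tfrc, the transferrin receptor gene, had the smallest p (difference 0.83, adjusted p = 0.230). Of 6 megakaryocyte markers, 1 rose, Itga2b (1.19, SE 0.14), with sums of 4543 to 6048 against 4962 to 4979. Over the 10 granule members the sum was 1109 to 1944 on the deficient arrays and 34119 to 41889 on the wild type arrays. The granule members and these plasma cell genes were both lower in deficient cells, and the part of other cell types in the members' difference was not tested.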

How the data were processed

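The deposited table holds 1 linear intensity value per probe set and array, which the authors made with RMA (background correction, a common distribution across arrays and a summary of each probe set's probes), per the submitters' processing notes. Which program and version ran RMA is not stated there. Because RMA forces arrays to 1 distribution, a change of all transcripts together in a group would be hidden. For arrays no depth applies, and their number limits the precision. All 5 columns were matched to samples by accession, and log2 was taken here.

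GEO's platform annotation gave the gene names: 34945 probe sets had 1 symbol, 932 several and 9160 none. Differences are deficient minus wild type from limma version 3.58.1 (R version 4.3.3; functions lmFit and eBayes, no covariate, all 5 arrays), adjusted by Benjamini-Hochberg over 45037 probe sets, without 64 AFFX control probe sets. For gene lists, the probe set with the highest mean stood for its gene. Other probe sets of the same gene could differ in size or sign. Tested on simulated data of the same size with 200 changed probe sets, the fit called 26% of those changed by 1 log2 unit, 90% by 2, 98% by 4 and 100% by 6, and 7 of 164 calls were false.

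Members and lists were chosen with earlier results of these data known. The rule for named genes was every member, a fixed set of regulators and primary granule genes, the 3 targeted genes, the 4 genes of smallest p in each list and the 8 genes nearest in profile; of those 4 the text names all or some. Ptpn23, Klhl18, Cdc25a, Nme6 and Ccrl2 were named for their position. Hp, Pglyrp1, Tcn2, Cxcr2, Clec4d, Itgam, Mcemp1, Kit, Cd34, Slc22a17, Cybb, Timp3, Fcna, Ctsc, Igfbp4, Xbp1, Xist and Eif2s3y were named after their values were seen. Alternatives tried are given in the closing section.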

Additional observations from a re-analysis of the deposited data

How the results depend on the processing

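Of the 10 member genes, 0 reversed direction under any alternative tried. The count of 9 lower probe sets stayed at 9 under renewed quantile normalization, cyclic loess and median centring, and was 6 with 32 added to the intensities before log2, which moved the median difference to -2.67. It was 5 with the replicate number as a replicate block (median difference -4.16), where 15 probe sets of all fell and 0 rose. No wild type array is numbered 3, so deficient 3 does not enter the differences of that block fit. They equal those of the fit without deficient 3, with the same median difference of -4.16. The replicate numbers were not shown to pair the samples: deviations of same-numbered arrays correlated at -0.05 and -0.02. With an intensity trend 11 fell, as did 0.577% of all probe sets, and at an adjusted p under 0.1 also 11, with 1.1% of all. With 1 array left out the count ran from 2 to 8, while 21 to 73 of all probe sets fell, against 147 with all arrays, and it was 4 without both deficient 2 and wild type 2. With 1 wild type array, its spread is taken from the deficient arrays. No probe set of the members rose in any fit. The members' median percentile, averaged over the deficient arrays, was 57.1 among all probe sets and 51.0 among those with 1 symbol. With 1 probe set per gene tested, all 10 members passed, Mmp8 and Chil3 included, and 257 of 18193 genes fell, against 111 when adjusted over all probe sets. Differences of genes at or under the array median are limited by dim signal.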

Other observations

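A further probe set (1425451_s_at) is annotated to both Chil4 and Chil3 and was therefore not counted with the members. It read 4.54, 6.52 and 4.90 on the deficient arrays, against 9.53 and 9.99 on the wild type arrays (difference -4.44, SE 0.58, adjusted p = 0.0512, limma). As for Chil3, deficient 2 was the highest deficient array, while the probe set named for Chil4 alone lay between 3.40 and 3.61 in deficient cells and between 3.62 and 3.70 in wild type cells.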
